A study of Mus musculus with 9 samples.

Results

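Neutrophils find their way into injured tissue with receptors of the G protein-coupled kind that sense chemoattractants. Here 8 genes of such receptors were described in the lungs of mice with ventilator-induced lung injury (VILI): Cxcr2, Ccr1, Fpr1, Fpr2, Ltb4r1, Ptafr, C5ar1 and Cxcr4. They were taken by name from a list of known receptors, drawn up with earlier results of these data known, and all 8 were found in the deposited table, which holds 27203 genes and assembled loci, 23713 of them with an Ensembl gene ID. RNA-Seq was done on whole lung of 9 male C57BL/6 mice aged 6 to 8 weeks, 1 library per mouse and 3 mice per group. Control mice were intubated and not ventilated. Mice of the VILI groups were ventilated for 4 hours with a high tidal volume and were killed immediately afterwards (VILI 0 hours) or 6 hours afterwards (VILI 6 hours). All mice had been anesthetized with ketamine and xylazine, muscle relaxation with pancuronium belonged to the ventilation procedure, and no sham-ventilated group at a low tidal volume was among the libraries. Time after the procedure in control mice is not given in the labels.

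These receptors couple mainly to inhibitory G proteins, and their engagement leads a neutrophil to polarize, crawl along the vessel wall and move up a gradient. They are commonly ordered by ligand. Cxcr2 binds the CXC chemokines that draw neutrophils from marrow to tissue, Ccr1 binds CC chemokines, Ltb4r1 and Ptafr bind the lipids leukotriene B4 and platelet-activating factor, and Fpr1, Fpr2 and C5ar1 answer formyl peptides and complement C5a near the site of damage. Cxcr4, the receptor of Cxcl12, acts the other way in the marrow, where it retains neutrophils, and it is also made by lymphocytes, endothelium and other cells. None of the 8 genes is made by neutrophils only.

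Values are FPKM, fragment counts of a transcript set against its length and the size of the library, and they can be compared between genes. FPKM of the transcript rows of a gene were summed. Differences are log2 fold changes of FPKM + 0.1 from limma, a linear model fitted to 19378 genes at once with all 9 libraries. A gene was called, and is said to have risen or fallen, where the P before adjustment was under 0.05, and the p adjusted by Benjamini-Hochberg over all genes tested stands beside it. In whole lung, more cells of a type and more RNA per cell cannot be told apart.

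The libraries held similar totals, from 366360 to 384010 FPKM in control and from 368826 to 388459 FPKM in the VILI groups. FPKM are scaled to the size of the library, so similar totals are built in and say nothing of sequencing depth. These values hold no read counts. 2 libraries of VILI 6 hours stood apart. Over the genes tested, the Pearson correlation of replicate 1 was 0.952 and 0.933 with the other libraries of its group and 0.968 to 0.970 with control, while replicate 3 had the lowest correlations with control (0.929 to 0.931) and correlated at 0.948 to 0.955 with VILI 0 hours. Receptor differences at 6 hours are therefore also given without either. Lung tissue was as labelled, with Sftpc, the surfactant gene of alveolar type 2 cells, at 9684 to 12504 FPKM in all libraries. Setting the libraries to a common median would add 0.11 (VILI 0 hours) and 0.13 (VILI 6 hours) to every log2 fold change against control.

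High tidal volume ventilation was followed by higher levels of most of these receptor genes. In VILI 0 hours vs control, 5 of 8 receptors rose (Cxcr2, Ccr1, Fpr2, Fpr1 and Ltb4r1) and none fell, where 6.81% of all genes tested were called higher and 9.35% lower. In VILI 6 hours vs control the 5 rose again and Cxcr4 fell, where 8.17% of all genes were called higher and 12.2% lower. With libraries set to a common median, the receptor counts stayed at 5 higher, and at 5 higher and 1 lower, although the share of higher genes among all called genes moved from 42.1% to 61.2% at 0 hours and from 40.1% to 58.1% at 6 hours. After adjustment, 2 receptors remained at 0 hours (0.284% of all genes) and 3 at 6 hours (0.702%). Between the 2 times after ventilation only Ltb4r1 was called, and it rose (5.06% of all genes were called higher and 4.94% lower). No gene of all those tested had an adjusted p under 0.05 in that comparison (0%), against 981 higher and 957 lower at an unadjusted P under 0.05. Leaving out 1 library in turn gave 2 to 6 receptors called at 0 hours, 4 to 6 at 6 hours and 1 to 2 between the times, and no receptor had an adjusted p under 0.05 in either comparison with control once any 1 control library was left out. In the same fits, of 19378 genes, 917 to 1741 were called higher and 1062 to 2752 lower at 0 hours. At 6 hours these were 1084 to 2486 and 1382 to 5040, and between the times 669 to 1656 and 610 to 2694. Under other settings the receptors with an adjusted p under 0.05 were 0 at 0 hours and 2 at 6 hours with no minimum of FPKM, 0 at both times with only the row of highest mean FPKM of each gene, and 1 and 2 with a replicate block or with no trend in the variance. At 0 hours they were 1 with a pseudocount of 1 or with libraries set to a common median. At 6 hours they were 2 in a fit of only the 6 libraries compared.

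Without VILI 6 hours replicate 1 the log2 fold changes at 6 hours were 3.99 for Cxcr2, 2.90 for Ccr1, 0.93 for Fpr1, 1.73 for Fpr2, 1.63 for Ltb4r1, 0.63 for Ptafr, -0.38 for C5ar1 and -1.05 for Cxcr4. The same receptors were called, 5 of them with a limma adjusted p under 0.05, in a fit where 4512 of 19378 genes had one, against 136 with all libraries. Without VILI 6 hours replicate 3 they were 3.38, 2.13, 0.65, 0.96, 1.51, 0.17, -0.69 and -0.56 in the same order. Fpr1 and Cxcr4 then lost the call, and only Cxcr2 had an adjusted p under 0.05 (limma adjusted p = 0.0162), in a fit where 17 genes had one.

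**Figure D1:**
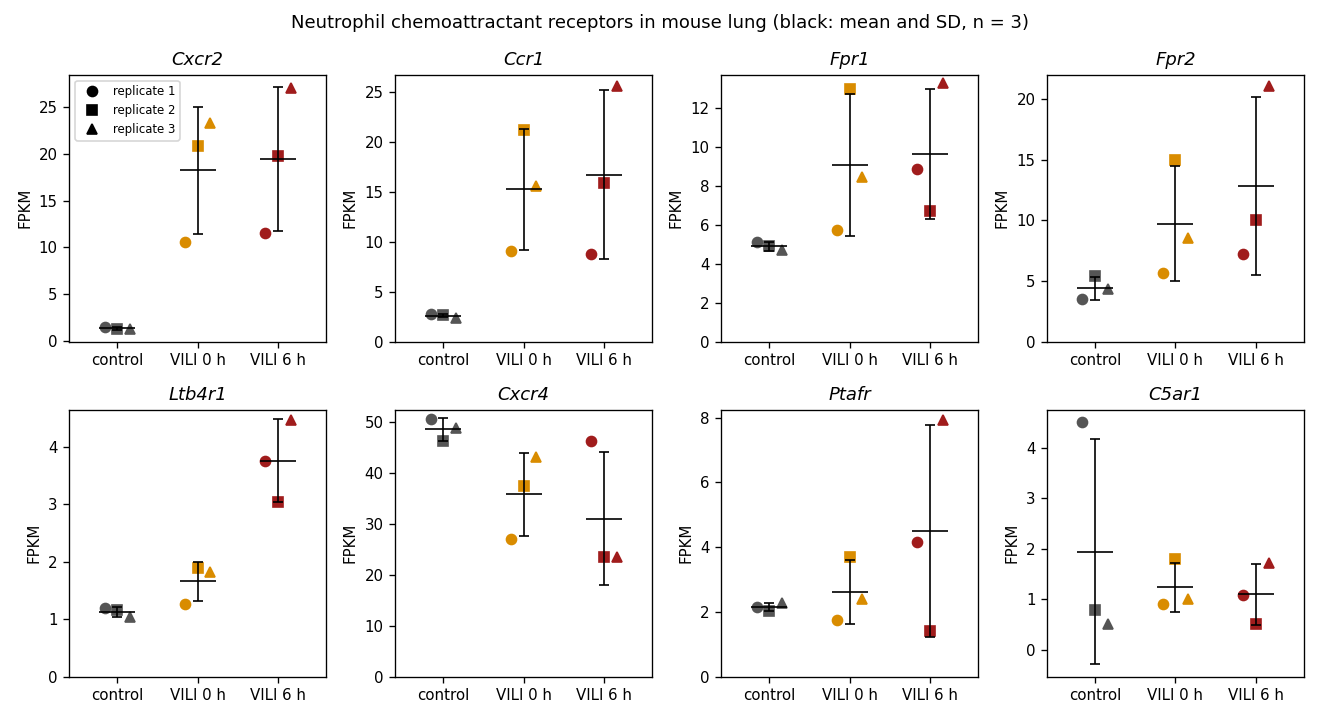
FPKM of the 8 receptor genes in each of the 9 libraries (y axis), by group (x axis), with symbols for the replicate number and black bars for the mean and SD of 3 libraries. Cxcr2, Ccr1, Fpr1, Fpr2 and Ltb4r1 lie higher in every VILI library than in every control library, and Cxcr4 lies lower. The Ptafr and C5ar1 groups overlap.

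The groups did not overlap for 6 of the 8 receptors at either time. The same 5 receptors were above every control library in all VILI 0 hours libraries, as were 12% of all genes, and in all VILI 6 hours libraries, as were 9.64% of all genes. Cxcr4 was below every control library at both times, as were 21.6% of all genes at 0 hours and 15% at 6 hours. Between the times, Ltb4r1 was the 1 receptor with no overlap, higher at 6 hours, as were 6.25% of all genes.

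**Figure D2:**
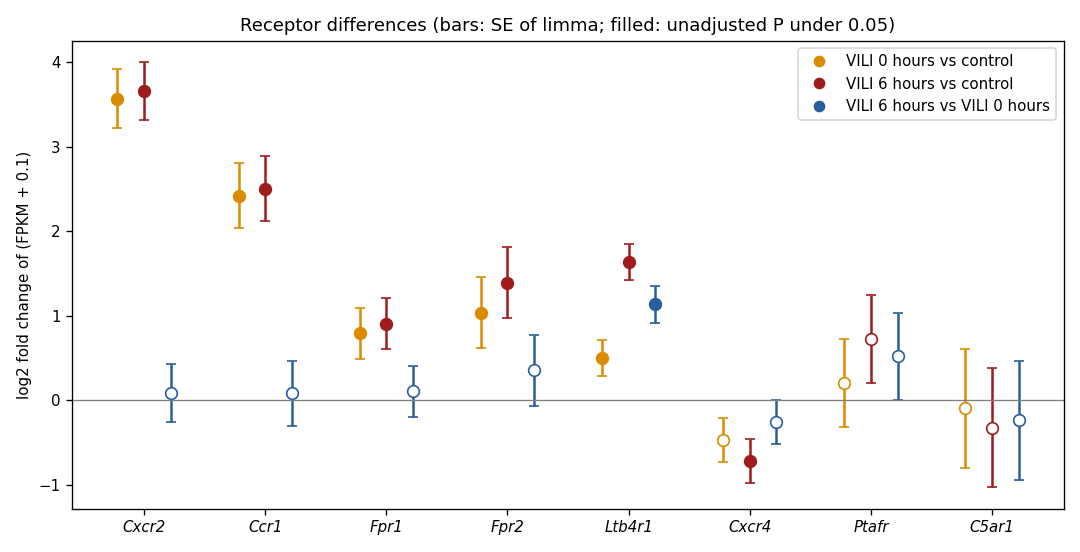
Log2 fold change of FPKM + 0.1 (y axis) for each receptor (x axis) in the 3 comparisons, with the SE of limma as bars. Filled circles have an unadjusted P under 0.05. The values fall from 3.57 and 3.66 for Cxcr2 to -0.46 and -0.72 for Cxcr4, and of the comparisons between the times only that of Ltb4r1 is filled.

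Cxcr2, the main chemokine receptor of circulating neutrophils, changed the most among the 8. Its gene (ENSMUSG00000026180) lies on the forward strand at chr1:74153989-74161246 (GRCm38). It stood at 1.53, 1.33 and 1.24 FPKM in control, 10.6, 20.8 and 23.3 FPKM right after ventilation and 11.6, 19.8 and 27.0 FPKM 6 hours later (replicates 1, 2 and 3). Every VILI library was far above the highest control, and replicate 1 was the lowest of both VILI groups. Cxcr2 rose 11.9-fold at 0 hours (log2 3.57, SE 0.34, limma adjusted p = 0.0179) and 12.6-fold at 6 hours (log2 3.66, SE 0.34, limma adjusted p = 0.00959). The level at 6 hours and that at 0 hours could not be distinguished, with a log2 difference of 0.09 and a 95% interval from -0.68 to 0.86. Leaving out control replicate 1, 2 or 3 took the limma adjusted p of Cxcr2 to 0.0521, 0.0646 and 0.159 at 0 hours and to 0.0540, 0.0693 and 0.101 at 6 hours, and leaving out VILI 0 hours replicate 2 or 3 took it to 0.0612 and 0.0704 at 0 hours. The log2 rise stayed between 3.35 and 3.99 in all of these.

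The table held 2 transcript rows of Cxcr2, in number the same as its GENCODE transcripts, without transcript IDs, so the exons behind each row are not known here. Row 1 carried all of the gene in control. Row 2 was listed at 0 in the 3 control libraries, and it stood at 1.18, 2.22 and 1.47 FPKM right after ventilation and at 5.49, 1.80 and 2.74 FPKM 6 hours later. It was thus above 0 in every VILI library and listed at 0 in every control. Its share of the FPKM of the gene was 11.2%, 10.7% and 6.33% at 0 hours, and 47.4%, 9.12% and 10.1% at 6 hours. The high share belonged to VILI 6 hours replicate 1. A value listed at 0 can be a failed estimate, so no fold change is given for row 2. Row 1 alone rose by log2 3.43 (SE 0.50, limma adjusted p = 0.103 over all rows) and 3.26 (SE 0.50, limma adjusted p = 0.0785). In a fit to 37300 transcript rows, 5 of the 10 receptor rows tested were called at 0 hours (11% of all rows), 7 at 6 hours (13.2%) and 1 between the times (7.4%). Both counts against control include row 2 of Cxcr2. That row passed the minimum of FPKM only through the VILI libraries, so its calls lend no support.

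**Figure D3:**
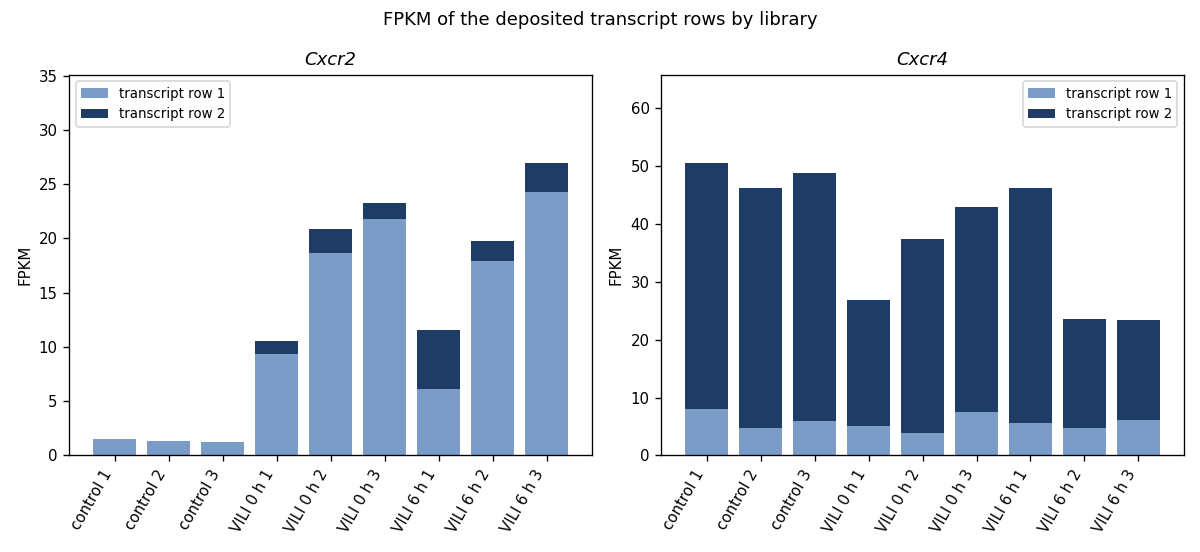
FPKM (y axis) of the 2 deposited transcript rows of Cxcr2 and of Cxcr4, stacked for each of the 9 libraries (x axis). Row 2 of Cxcr2 is listed at 0 in the control libraries and makes up 47.4% of the bar of VILI 6 hours replicate 1, while row 2 of Cxcr4 makes up 74.0% to 89.9% of every bar.

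Ccr1, a receptor of Ccl3, Ccl5 and related CC chemokines on neutrophils, monocytes and macrophages, followed Cxcr2. Its gene (ENSMUSG00000025804) lies on the reverse strand at chr9:123962124-123968692. The levels were 2.78, 2.68 and 2.42 FPKM in control, 9.08, 21.2 and 15.6 FPKM right after ventilation and 8.76, 15.9 and 25.6 FPKM 6 hours later. All VILI libraries were above all controls. Ccr1 rose 5.34-fold at 0 hours (log2 2.42, SE 0.38, limma adjusted p = 0.0441) and 5.66-fold at 6 hours (log2 2.50, SE 0.38, limma adjusted p = 0.0274), with a log2 difference of 0.08 between the times (95% interval -0.78 to 0.95). With libraries set to a common median the limma adjusted p at 0 hours was 0.0525. It was also above 0.05 (limma adjusted p = 0.0619 to 0.215) without any 1 control library at both times, without VILI 0 hours replicate 2 or 3 or VILI 6 hours replicate 2 at 0 hours, and without VILI 6 hours replicate 2 or 3 at 6 hours, while the log2 rise ran from 2.13 to 2.90 over all libraries left out. Over the 9 libraries Cxcr2 and Ccr1 were the pair of receptors most alike (Pearson r = 0.98 on the log2 scale), and they were also alike in their deviations from the group means (r = 0.94). These 9 libraries form groups, so both values are descriptions.

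Fpr1 and Fpr2, receptors of formylated peptides from bacteria and mitochondria, rose less than Cxcr2 and Ccr1 in log2 fold change. They are neighbours on chr17, Fpr1 (ENSMUSG00000045551) on the reverse strand at chr17:17876471-17883940 and Fpr2 (ENSMUSG00000052270) on the forward strand at chr17:17887824-17893952. Fpr2 overlaps Fpr3 on the same strand and belongs to a family of related genes, so reads may have been split between them. Fpr1 was at 5.13, 4.88 and 4.68 FPKM in control, 5.74, 12.9 and 8.45 FPKM right after ventilation and 8.87, 6.72 and 13.2 FPKM 6 hours later. Fpr2 was at 3.49, 5.39 and 4.32 FPKM in control, 5.69, 15.0 and 8.52 FPKM right after ventilation and 7.27, 10.04 and 21.1 FPKM 6 hours later. In both genes the lowest VILI library, replicate 1 at 0 hours, was close to the highest control. Fpr1 rose by log2 0.80 at 0 hours (SE 0.30, limma adjusted p = 0.243) and 0.91 at 6 hours (SE 0.30, limma adjusted p = 0.156). Fpr2 rose by log2 1.04 at 0 hours (SE 0.42, limma adjusted p = 0.268) and 1.39 at 6 hours (SE 0.42, limma adjusted p = 0.133). At 0 hours the call of Fpr1 was lost without control replicate 2 or 3 or VILI 0 hours replicate 2 or 3 (log2 0.50 to 0.81), and that of Fpr2 without control replicate 1 or 3 or VILI 0 hours replicate 2 or 3 (log2 0.67 to 1.07). At 6 hours Fpr1 lost its call without VILI 6 hours replicate 3 (log2 0.65).

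Ltb4r1 encodes the high-affinity receptor of leukotriene B4, a lipid by which neutrophils recruit more of their kind. Its gene (ENSMUSG00000046908) lies on the forward strand at chr14:55765962-55768494. Levels were low throughout, at 1.19, 1.16 and 1.03 FPKM in control, 1.27, 1.89 and 1.82 FPKM right after ventilation and 3.76, 3.04 and 4.48 FPKM 6 hours later. The 3 groups did not overlap in any pair, and the lowest VILI 0 hours library was just above control. Ltb4r1 rose by log2 0.50 at 0 hours (SE 0.22, limma adjusted p = 0.293) and by log2 1.64, or 3.11-fold, at 6 hours (SE 0.22, limma adjusted p = 0.0217). It was the only receptor called between the times, with a log2 rise of 1.14 from 0 to 6 hours (SE 0.22, limma adjusted p = 0.155). That value was 1.13 without VILI 6 hours replicate 1 and ran from 0.97 to 1.28 over all libraries left out in turn. At 0 hours the call was lost without any 1 control library, and without VILI 0 hours replicate 2 or 3 (log2 0.40 to 0.54). At 6 hours the adjusted p was above 0.05 without any 1 control library and without VILI 6 hours replicate 3 (limma adjusted p = 0.0511 to 0.143).

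Cxcr4 was the receptor with the highest level in control and the only one to fall. Its gene (ENSMUSG00000045382) lies on the reverse strand at chr1:128588199-128592293. It stood at 50.6, 46.2 and 48.8 FPKM in control, 26.9, 37.5 and 43.0 FPKM right after ventilation and 46.1, 23.5 and 23.4 FPKM 6 hours later. VILI 6 hours replicate 1 lay just below the lowest control, while the other 2 lay at less than all VILI 0 hours libraries. Cxcr4 fell by 0.72 on the log2 scale at 6 hours (SE 0.26, limma adjusted p = 0.178). At 0 hours the log2 difference was -0.46 (SE 0.26, limma adjusted p = 0.419, not called), and between the times it was -0.26 (95% interval -0.84 to 0.33). Without VILI 6 hours replicate 1 the difference between the times was called (log2 -0.58, limma adjusted p = 0.106), as was that at 0 hours (limma adjusted p = 0.109). That library then did not enter the shared estimate of spread. Without VILI 6 hours replicate 2 or 3 or control replicate 1 the call at 6 hours was lost (log2 -0.56, -0.56 and -0.69). Row 2, with 74.0% to 89.9% of the FPKM of the gene, fell by 0.84 on the log2 scale at 6 hours (limma adjusted p = 0.329 over all rows), while row 1 differed by -0.14 (limma adjusted p = 0.850) and was not called.

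The summed level of B cell markers was lower on average in both VILI groups, as was that of Cxcr4, while within these groups the libraries were ordered differently. Of the 6 B cell markers, 1 was called lower at 0 hours (9.35% of all genes) and 4 at 6 hours (12.2%), none was called higher, and their median log2 fold changes were -0.57 and -1.14, beside -0.07 and -0.09 over all genes. Their summed level was 50.6 to 68.2 FPKM in control, 66.7, 42.1 and 21.6 FPKM right after ventilation and 15.1, 43.2 and 22.4 FPKM 6 hours later (replicates 1, 2 and 3). Right after ventilation the order was the reverse of that of Cxcr4, which was lowest in replicate 1 and highest in replicate 3, and 6 hours later the library with the highest Cxcr4, replicate 1, had the lowest sum. Cd79b, part of the B cell receptor and the highest of them, was at 14.8 to 18.7 FPKM in control and fell to 5.13 to 12.1 FPKM at 6 hours (log2 -1.12, limma adjusted p = 0.195), a call that was lost without control replicate 1 or 3 or VILI 6 hours replicate 1 or 3 (log2 -0.83 to -1.11). None of these markers was at 0 in all libraries. The part of B cells in the Cxcr4 result was not tested.

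Ptafr and C5ar1 were not called in any comparison. Ptafr, the receptor of platelet-activating factor (ENSMUSG00000056529, forward strand, chr4:132564067-132582683), was at 2.15, 2.02 and 2.28 FPKM in control, 1.74, 3.70 and 2.39 FPKM right after ventilation and 4.16, 1.40 and 7.91 FPKM 6 hours later. VILI 6 hours held both the lowest and the highest library. The log2 difference was 0.21 at 0 hours (95% interval -0.96 to 1.37) and 0.73 at 6 hours (-0.44 to 1.89), so rises as large as those of Fpr1 lay within both intervals. Without VILI 6 hours replicate 2, the library with 1.40 FPKM, Ptafr was called at 6 hours vs control (log2 1.38, limma adjusted p = 0.164) and vs VILI 0 hours (log2 1.17, limma adjusted p = 0.345).

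C5ar1 encodes the receptor of the complement fragment C5a (ENSMUSG00000049130, reverse strand, chr7:16246743-16259540). It stood at 4.51, 0.792 and 0.515 FPKM in control, 0.897, 1.80 and 1.01 FPKM right after ventilation and 1.07, 0.507 and 1.71 FPKM 6 hours later. Control replicate 1 was above all other libraries, and the others overlapped. Of its 3 transcript rows, row 2 carried nearly all FPKM and row 1 was listed at 0 in all libraries. The log2 difference was -0.09 at 0 hours (95% interval -1.67 to 1.49) and -0.32 at 6 hours (-1.90 to 1.25), and its sign depended on 1 library: without control replicate 1 it was 0.79 and 0.56. No direction can be given for C5ar1 with these intervals.

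The order of the levels changed with ventilation. In control Cxcr4 led at a mean of 48.5 ± 2.21 FPKM (SD, n = 3), followed by Fpr1 at 4.89 ± 0.224, Fpr2 at 4.40 ± 0.952 and Ccr1 at 2.63 ± 0.190. Ptafr at 2.15 ± 0.130, C5ar1 at 1.94 ± 2.23, Cxcr2 at 1.37 ± 0.149 and Ltb4r1 at 1.13 ± 0.0841 FPKM came last. The ranges of Fpr1 and Fpr2 overlapped, as did those of Ptafr, C5ar1 and Cxcr2 along the order. In VILI 0 hours Cxcr2 stood second, at 18.2 ± 6.75 FPKM after Cxcr4 at 35.8 ± 8.16 FPKM, with no overlap between them, and in VILI 6 hours Cxcr2 at 19.4 ± 7.71 FPKM overlapped Cxcr4 at 31.0 ± 13.1 FPKM. In both VILI groups Ccr1, Fpr2 and Fpr1 came next in this order and each overlapped its neighbour. The lowest mean was that of Ltb4r1 in control and of C5ar1 at both times after ventilation. That order in control rested on control replicate 1: in replicates 2 and 3 C5ar1 lay below Ltb4r1, and the ranges of both genes overlapped in control and right after ventilation.

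Markers of neutrophils rose, as did 5 of the 8 receptors. Of 15 neutrophil markers, none of them among the 8 receptors, 14 rose at 0 hours (6.81% of all genes) and 15 at 6 hours (8.17%), with median log2 fold changes of 2.86 and 3.20, beside -0.07 and -0.09 over all genes tested. Their summed level was 74.4 to 80.6 FPKM in control, 616 to 1104 FPKM right after ventilation and 542 to 2167 FPKM 6 hours later, and none was at 0 in all libraries. Ly6g, at 0, 0.0532 and 0 FPKM in control, passed the minimum of 0.1 FPKM only through the VILI libraries. It is among the markers counted as risen and in the marker mean used for the ratios. S100a9, an alarmin of neutrophils and the highest of the 15 markers, was at 23.4 to 29.3 FPKM in control, 269 to 490 FPKM right after ventilation and 238 to 1100 FPKM 6 hours later. In each VILI group replicate 1 had the lowest summed level, as it had the lowest Cxcr2. Monocyte and macrophage markers (12 genes) summed to 268 to 325 FPKM in control, 346 to 460 FPKM right after ventilation and 286 to 714 FPKM 6 hours later, with 2 called higher and 1 lower at 0 hours (6.81% and 9.35% of all genes) and 3 higher and 1 lower at 6 hours (8.17% and 12.2%). Their median log2 fold changes were 0.26 and 0.39. Chil3, a macrophage gene and the highest of that list, was at 528 FPKM in VILI 6 hours replicate 1 and at 129 to 301 FPKM elsewhere. The part of these cells in the receptor results was not tested.

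The receptors were also set against the neutrophil markers. The log2 level of each receptor minus the mean log2 level of the 15 markers was taken in each library, and it was compared by an exact two-sided permutation test, in which 3 against 3 libraries can give no p below 0.1. For Cxcr2 this ratio was -0.43, -0.70 and -0.78 in control, -0.08, -0.08 and -0.02 in VILI 0 hours and -0.06, -0.15 and -0.49 in VILI 6 hours. It was above every control library at 0 hours, a difference of 0.58 (exact permutation p = 0.1), and overlapped control at 6 hours, a difference of 0.40 (exact permutation p = 0.2), both in log2. For Ccr1 the ratio was 0.39, 0.25 and 0.14 in control, -0.30, -0.06 and -0.59 in VILI 0 hours and -0.46, -0.46 and -0.57 in VILI 6 hours, a difference of -0.57 and -0.76 (exact permutation p = 0.1 for both). The direction of these differences depended on the markers: against S100a9 alone the Cxcr2 ratio differed by -0.27 and -0.66, and against Csf3r alone, the receptor of the neutrophil growth factor G-CSF, the Ccr1 ratio differed by 0.07 and 0.43. With a pseudocount of 1 the Ccr1 ratio differed by -0.33 (exact permutation p = 0.2) and -0.48, and with 0.01 by -0.77 and -0.95. The Cxcr2 ratio differed by 0.53 and 0.38 with a pseudocount of 1, and by 0.43 and 0.25 with 0.01.

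The other 6 receptors had lower ratios to the 15 markers after ventilation than in control. The ratio of Fpr1 differed from control by -2.20 at 0 hours and -2.35 at 6 hours, that of Fpr2 by -1.96 and -1.86, and that of Ltb4r1 by -2.49 and -1.62. For Ptafr the differences were -2.79 and -2.53, for C5ar1 -3.08 and -3.58, and for Cxcr4 -3.46 and -3.98. Those of C5ar1 were -2.18 and -2.68 without control replicate 1, the library with its high value, and that of Ptafr at 6 hours was -1.87 without VILI 6 hours replicate 2. With all libraries, all 12 were at the smallest value the design allows (exact permutation p = 0.1 each), and all 12 were negative against S100a9 alone, from -2.68 to -5.04. Against Csf3r alone they were negative but smaller: at 6 hours that of Ltb4r1 was -0.43 (exact permutation p = 0.1) and that of Fpr2 was -0.67 (exact permutation p = 0.3), and the other 10 ran from -1.16 to -2.81. Without VILI 6 hours replicate 1 the differences at 6 hours from the 15 markers were 0.31 for Cxcr2, -0.78 for Ccr1 and -1.95 to -4.72 for the other 6. A difference of zero would mean that receptor and markers moved by the same factor.

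**Figure D4:**
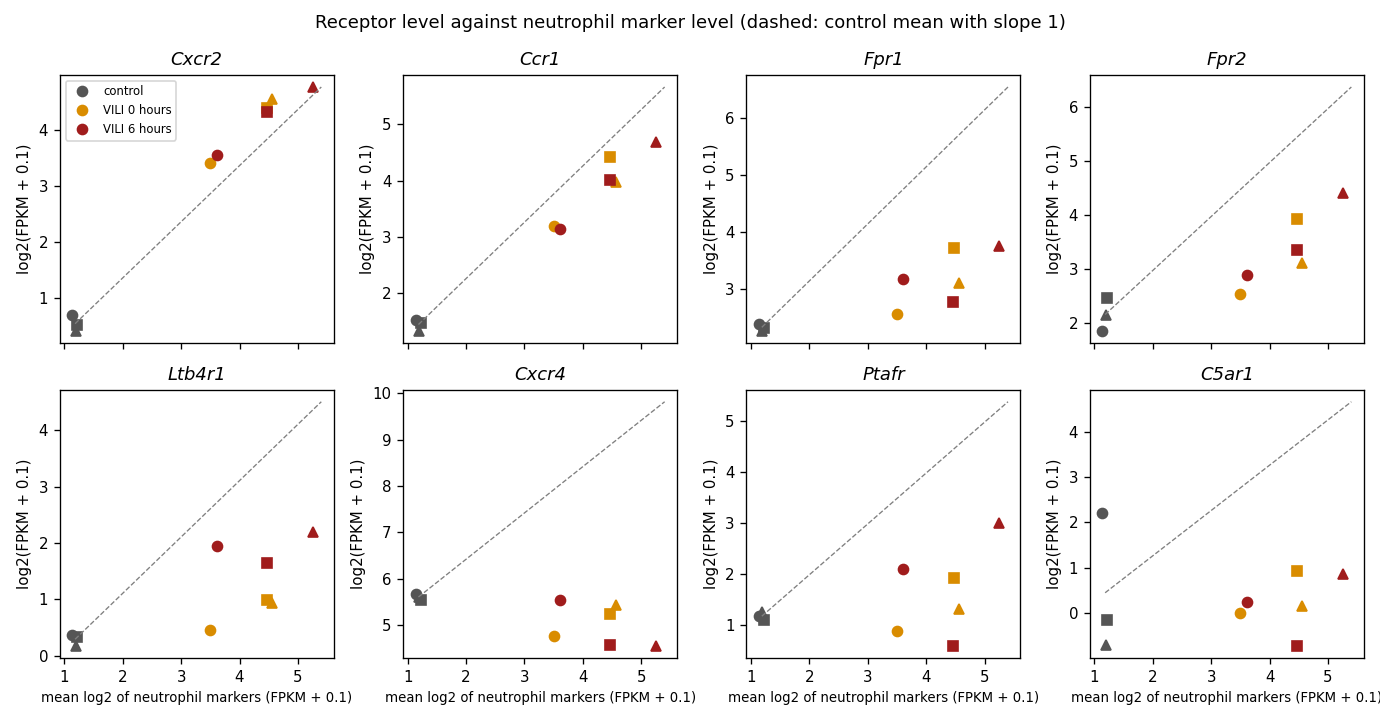
Log2(FPKM + 0.1) of each receptor (y axis) against the mean log2(FPKM + 0.1) of the 15 neutrophil markers (x axis) in the 9 libraries, with colours for the group and symbols for the replicate number as in the plot of FPKM by group. The dashed line starts at the control mean and rises 1 for 1 with the markers. The VILI libraries lie above it for Cxcr2 and below it for all other receptors, on average nearest to it for Ccr1.

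To show the sequence before the genes, bases up to 250 upstream of the start annotated by RefSeq (GRCm38.p6) are printed for the pair most alike (Cxcr2 and Ccr1), the receptor called between the times (Ltb4r1) and the one that fell (Cxcr4). Bases within a GENCODE gene model were left off. They are given 5′ to 3′ on the strand of the gene. Capitals mark GAGGAA, a core of the sites bound by PU.1, a transcription factor of myeloid cells, on either strand, and TATAAA, the core of a TATA box, on either strand.
Cxcr2 (chr1:74153744-74153988, forward strand): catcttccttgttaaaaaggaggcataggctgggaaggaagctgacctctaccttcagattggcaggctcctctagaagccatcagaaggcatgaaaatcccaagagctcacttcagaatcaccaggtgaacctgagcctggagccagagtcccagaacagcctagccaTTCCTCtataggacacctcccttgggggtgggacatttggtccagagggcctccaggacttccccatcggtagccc
Ccr1 (chr9:123968693-123968942, reverse strand): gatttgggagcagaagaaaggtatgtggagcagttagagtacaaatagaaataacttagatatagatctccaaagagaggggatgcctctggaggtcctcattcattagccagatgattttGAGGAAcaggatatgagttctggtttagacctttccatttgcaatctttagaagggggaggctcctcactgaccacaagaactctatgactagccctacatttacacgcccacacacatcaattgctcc
Ltb4r1 (chr14:55765712-55765961, forward strand): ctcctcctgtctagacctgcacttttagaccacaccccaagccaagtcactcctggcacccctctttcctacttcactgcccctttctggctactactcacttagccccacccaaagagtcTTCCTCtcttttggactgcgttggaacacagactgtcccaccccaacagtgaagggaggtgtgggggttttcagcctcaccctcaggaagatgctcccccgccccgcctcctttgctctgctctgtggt
Cxcr4 (chr1:128592300-128592549, reverse strand): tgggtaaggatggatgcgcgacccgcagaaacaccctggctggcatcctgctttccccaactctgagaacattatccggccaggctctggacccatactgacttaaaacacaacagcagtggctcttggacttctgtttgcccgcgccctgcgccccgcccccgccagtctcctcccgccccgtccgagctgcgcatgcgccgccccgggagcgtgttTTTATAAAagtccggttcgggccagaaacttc

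GAGGAA was found in the 250 bases before the RefSeq start of 5 of the 8 receptor genes (Cxcr2, Ccr1, Ltb4r1, Fpr2 and Ptafr) and in 23.3% of all 32851 RefSeq windows of that length. For C5ar1, 202 of the 250 bases searched lay within its GENCODE gene model. TATAAA was found before 3 of the 8 (Cxcr4, Fpr1 and Fpr2) and in 12.4% of all windows. In Cxcr4 it began 30 bases before the start, where 2 matches on opposite strands overlapped. Also searched on both strands were TTGCNNAA, a site of C/EBP factors (9.56% of all windows), TGANTCA, a site of AP-1 (6.75%), ACGTG, the core of a site of HIF (16.6%), and the consensus of NF-kappaB (3.9%), and none of these letters stood in the windows of the 8 receptors. A match is a run of letters and no evidence of binding.

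Genes whose levels over the 9 libraries were most like those of a receptor were sought among 14107 other genes with a mean of at least 1 FPKM, by Pearson r on the log2 scale. They are descriptions over libraries that form groups. For Cxcr2 these were Mmp9, S100a9 and Msrb1 (r = 0.99 each) and for Ccr1 Mmp8, S100a9 and Gda (r = 0.99 each), and Mmp9, Mmp8 and S100a9 belong to the neutrophil markers. Ltb4r1 was most like Slc11a1 (r = 0.98), a metal transporter of phagocytes, Cd177 (r = 0.97), a surface protein of neutrophils, and C3 (r = 0.97). The genes most like Fpr1 were Pip4k2a (r = 0.98), Trem3 (r = 0.96) and Lcp1 (r = 0.95). Fpr2 was most like Ifi207, Ly6c2, a monocyte marker, and Ms4a6d (r = 0.95 each). Ptafr was most like Rab32 (r = 0.95), Ripk2 (r = 0.94) and Ptprc (r = 0.93), the common leukocyte antigen. The genes most like Cxcr4 were Trap1, Zfp329 and Rttn (r = 0.98 each), none of them in the marker lists. For C5ar1 they were Trim39 (r = 0.88), Dynlt1b (r = 0.87) and Ppp1r12a (r = 0.83), below the values of all other receptors.

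More genes of the ligands, and of the enzymes that make lipid ligands, were called at 6 hours than at 0 hours against the same control libraries, a difference that was not tested. Of 21 such genes, 6 rose and none fell in VILI 0 hours vs control (6.81% and 9.35% of all genes), 11 rose and 1 fell in VILI 6 hours vs control (8.17% and 12.2%), and 5 rose and none fell between the times (5.06% and 4.94%), with medians of 0.36, 0.99 and 0.50 (log2), beside -0.07, -0.09 and -0.02 over all genes. Some of these genes stood far higher in VILI 6 hours replicate 3 than in replicates 1 and 2, and others, such as C3, did not. Cxcl1, Cxcl3 and Ccl3 were at 44.4, 15.6 and 22.5 FPKM there, against at most 3.49, 1.07 and 1.25 FPKM in replicates 1 and 2. The counts of this list are not given without that library. Cxcl2, a ligand of Cxcr2, was at 0.0463 to 0.122 FPKM in control, 0.449, 1.68 and 4.84 FPKM right after ventilation and 2.30, 2.88 and 150 FPKM 6 hours later. It was higher in every VILI library, with 1 library far above the rest, and it rose by log2 3.31 (SE 1.41, limma adjusted p = 0.289) and 5.90 (SE 1.41, limma adjusted p = 0.0878). The control mean of Cxcl2, 0.0742 FPKM, was under the minimum of 0.1 FPKM. Cxcl2 thus entered the test only through the VILI libraries, and it is among the genes counted as risen at both times. The call at 0 hours was lost without any 1 control library and without VILI 0 hours replicate 2 or 3 (log2 2.53 to 3.50), and also with a pseudocount of 1 (log2 1.40), no minimum of FPKM or no trend. The log2 rise at 6 hours ran from 3.97 without VILI 6 hours replicate 3 to 6.95 without replicate 1, and was 3.54 with a pseudocount of 1. Cxcl12, the ligand of Cxcr4, was at 53.8 to 62.8 FPKM in control and at 40.7, 32.0 and 23.6 FPKM 6 hours after ventilation, and it fell by 0.90 on the log2 scale (SE 0.24, limma adjusted p = 0.109). Saa3, a serum amyloid A of the family that can engage Fpr2, was at 0.922 to 2.83 FPKM in control, 0.921, 6.83 and 0.951 FPKM right after ventilation and 16.5, 58.3 and 460.3 FPKM 6 hours later. It had the largest rise of the list between the times (log2 5.29, SE 1.14, limma adjusted p = 0.206), from 3.99 without VILI 6 hours replicate 3 to 6.39 without replicate 1. C3, the complement component upstream of C5a and the highest of the list, was at 127 to 144 FPKM in control and at 230, 199 and 224 FPKM 6 hours after ventilation, a rise of log2 0.66 (SE 0.10, limma adjusted p = 0.0274).

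Related receptors, many of which share or scavenge these ligands, mostly were not called. Of 14, 11 passed the minimum of 0.1 FPKM, and 2 rose and 1 fell at 0 hours (6.81% and 9.35% of all genes), 1 rose and none fell at 6 hours (8.17% and 12.2%), and 2 rose and none fell between the times (5.06% and 4.94%). The count at 6 hours is near the share of all genes. C5ar2, the second receptor of C5a, rose at 0 hours from 1.31 to 1.55 FPKM in control to 2.12, 3.41 and 3.13 FPKM (log2 0.95, limma adjusted p = 0.114). With only its row of highest mean FPKM the call was lost (log2 1.45, limma adjusted p = 0.534). Its neighbour C5ar1 was not called there. Ackr2, a scavenger of CC chemokines, had the largest rise at 6 hours (log2 1.07, limma adjusted p = 0.105). Ackr3, a scavenger of Cxcl12, was at 11.3, 6.94 and 10.2 FPKM right after ventilation and at 9.71, 23.6 and 38.9 FPKM 6 hours later, and it rose between the times (log2 1.16, limma adjusted p = 0.412), its lowest library at 6 hours being replicate 1. That call was lost on leaving out VILI 0 hours replicate 2, or VILI 6 hours replicate 2 or 3 (log2 0.95, 1.06 and 0.70). Cmklr1, the chemerin receptor and the highest of this list, fell at 0 hours (log2 -0.27, limma adjusted p = 0.309) and rose from 0 to 6 hours (log2 0.49, limma adjusted p = 0.254). Its fall lost the call without control replicate 1 or 2 or VILI 0 hours replicate 1 or 3 (log2 -0.20 to -0.27). Fpr-rs4 was listed at 0 in all libraries, and Ccr3 and Fpr3 were under the minimum.

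Genes of the signal below the receptors were in part called higher, by less than the receptors that rose most. Of 18 transducers, 4 rose and none fell at 0 hours (6.81% and 9.35% of all genes), 5 rose and 1 fell at 6 hours (8.17% and 12.2%), and 1 rose and 1 fell between the times (5.06% and 4.94%), with medians of 0.08, 0.15 and 0.10 (log2). Between the times these counts are near the shares of all genes. Pik3r5, a regulatory subunit of the phosphoinositide 3-kinase gamma that acts below these receptors, had the largest rise at 0 hours (log2 0.59, limma adjusted p = 0.246). Fgr, a kinase of myeloid cells, had the largest at 6 hours (log2 1.13, limma adjusted p = 0.0865) and between the times (log2 0.61, limma adjusted p = 0.487), while Plcb2, a phospholipase, fell at 6 hours (log2 -0.67, limma adjusted p = 0.129). Gng2, a G protein gamma subunit, fell between the times (log2 -0.46, limma adjusted p = 0.316). Pik3r5 lost its call at 0 hours without control replicate 2 or 3 or VILI 0 hours replicate 1 or 2 (log2 0.52 to 0.58), and Fgr lost that between the times without any 1 control library, VILI 0 hours replicate 1 or 3 or VILI 6 hours replicate 1 or 3 (log2 0.31 to 0.61). The call between the times of Fgr was also lost with no minimum of FPKM, the 6 libraries compared alone, the replicate block, no trend or the row of highest mean FPKM (log2 0.61 to 0.62, limma adjusted p = 0.538 to 0.793). The fall of Plcb2 was -0.44 without VILI 6 hours replicate 3, and its call was lost with the row of highest mean FPKM (log2 -0.73, limma adjusted p = 0.484). Gnai2, the inhibitory G protein subunit with the highest level of the list, was at 173 to 180 FPKM in control and 151 to 220 FPKM in the VILI groups and was not called.

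Of 12 genes that switch the receptors off or speed up the G protein cycle, 3 rose and 1 fell at 0 hours (6.81% and 9.35% of all genes), 1 rose and 1 fell at 6 hours (8.17% and 12.2%) and 1 rose between the times (5.06%). At 6 hours and between the times these counts are near the shares of all genes. Rgs1, a G protein regulator of leukocytes, had the largest rise at 0 hours (log2 1.36, limma adjusted p = 0.246), and Grk3, a receptor kinase, fell (log2 -0.33, limma adjusted p = 0.207). Arrb2 rose at 6 hours (log2 0.59, limma adjusted p = 0.0865), while Arrb1, the other beta-arrestin and the highest of the list at 34.0 to 49.4 FPKM, fell (log2 -0.27, limma adjusted p = 0.237). Rgs16 was at 0.257, 0.201 and 0.0807 FPKM right after ventilation and at 0.950, 0.358 and 4.55 FPKM 6 hours later, a rise of log2 2.28 (limma adjusted p = 0.366). The rise of Rgs16 was 1.37 without VILI 6 hours replicate 3, 3.04 without replicate 2 and 1.06 with a pseudocount of 1. Rgs1 lost its call without control replicate 2 or 3 or VILI 0 hours replicate 3 (log2 0.92 to 1.40), Grk3 without control replicate 1 or VILI 0 hours replicate 3 (log2 -0.26 and -0.29), and Arrb1 without any 1 library other than VILI 0 hours or VILI 6 hours replicate 1 (log2 -0.15 to -0.30).

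With libraries set to a common median, the falls of Cmklr1, Grk3, Arrb1 and Cd79b were no longer called. With the row of highest mean FPKM, those of Cmklr1, Grk3 and Arrb1 and the rise of Arrb2 at 6 hours were not called either. The call of Cmklr1 was also lost with a pseudocount of 0.01 or no trend, and that of Arrb1 with the 6 libraries compared alone or no trend. Of 7 T cell markers none was called in any comparison, of 6 endothelial markers 1 fell against control at each time, and of 8 alveolar markers 1 rose at 0 hours, and 1 rose and 1 fell at 6 hours. These counts are near the shares of all genes (6.81% higher and 9.35% lower at 0 hours, 8.17% and 12.2% at 6 hours). Their highest genes, Cd3e, Cdh5 and Sftpc, were not called.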

How the data were processed

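Total RNA of 9 lungs was sequenced after rRNA depletion. Per the labels and methods, the authors cleaned the reads of adapters, unknown bases and low quality, aligned them to GRCm38 with TopHat2 2.0.9 and Bowtie2 2.0.6, assembled transcripts with Scripture and Cufflinks, and deposited FPKM per transcript from Cuffdiff 2.1.1. Kit and sequencer differ between labels and methods, so strandedness is unsettled. The study lists reads per library, which are not used here. FPKM hold no read counts per gene, so no counting error is given, and a gene covered by shared or multimapped reads cannot be checked. Groups came from the sample labels. Replicate numbers name separate mice.

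FPKM were summed per gene. Genes with a mean of at least 0.1 FPKM over the 9 libraries were fitted on log2(FPKM + 0.1) with limma 3.58.1 (R 4.3.3), using lmFit and a trended eBayes, with group as the sole term over all 9 libraries, and p-values were adjusted by Benjamini-Hochberg over 19378 genes. The pseudocount understates changes of genes near 0.1 FPKM. Ratios to the markers used an exact permutation test over 20 divisions. Of 23713 Ensembl IDs, 23503 matched GENCODE M21, which gave names and positions. Upstream sequences came from RefSeq (GRCm38.p6), and all 8 receptors matched. Trbc2 had no row under its ID and was not used here. The fit was tested on simulated data, with an outcome that is not given here. Python 3.11.15, pandas 2.3.3 and matplotlib 3.10.9 were also used.

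Members and lists were chosen with earlier results of these data known. Named genes were the 8 receptors, the largest rise and fall among called genes and the highest gene of each pathway list, the highest gene of each cell type list and any marker at 0, and the 3 genes most like each receptor. Alternatives were pseudocounts of 0.01 and 1, a minimum of 1 FPKM, no minimum, libraries centred on their median, a fit of the 6 libraries compared, a replicate block, no trend, the row with the highest mean, and leaving out each library. For the ratios they were other pseudocounts, S100a9 or Csf3r alone, and leaving out each library. Alternatives for transcript rows and for named genes other than receptors were added after seeing the data.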

Additional observations from a re-analysis of the deposited data

Results flagged for a closer look

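Results are given here where the 2 times after ventilation differed by the test of VILI 6 hours vs VILI 0 hours itself (limma, unadjusted P under 0.05). No adjusted p passed 0.05. Among the receptors this held for Ltb4r1 (log2 1.14, limma adjusted p = 0.155). Among the other genes named it held for the related receptors Cmklr1 (log2 0.49) and Ackr3 (log2 1.16), the ligand genes Saa3 (log2 5.29) and C3 (log2 0.50), the transducers Gng2 (log2 -0.46) and Fgr (log2 0.61) and the regulator Rgs16 (log2 2.28). The counts of transducers and regulators called between the times were near the shares of all genes. Of the genes most like a receptor it also held for Slc11a1 (log2 0.80) and Cd177 (log2 2.02), which were picked for their likeness to Ltb4r1 and so are not independent of it.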

How the results depend on the processing

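Under other pseudocounts, filters, centring, fits of 6 libraries, no trend or the row with the highest mean, the count of receptors called stayed within 1.5 times. At 0 hours it fell from 5 to 4 with a pseudocount of 1, the replicate block or the row with the highest mean, where Ltb4r1 lost its call (limma adjusted p = 0.344, 0.392 and 0.362), and without a trend, where Fpr2 did. The 6-library fit added Cxcr4 there. Same-numbered libraries correlated at -0.22 to 0.02 in their deviations. This check cannot exclude that same-numbered libraries shared handling that touched only some genes. Leaving out 1 library gave 2 to 6 receptors at 0 hours, 1 to 2 between the times, and 0 to 2 and 0 to 5 with an adjusted p under 0.05 against control. Receptor rows called, with row 2 of Cxcr2 among those tested, were 3 to 6, 5 to 7 and 1 to 3, and 3 at 0 hours without a trend (main 5). Centring turned C5ar1 at 0 hours to 0.024, and the row with the highest mean turned Cxcr2 between the times to -0.17. Leaving out 1 library, C5ar1 ran from -0.67 to 0.79 at 0 hours, from -0.90 to 0.56 at 6 hours and from -0.60 to 0.19 between the times, and Ptafr from -0.070 to 0.45 at 0 hours and from -0.034 to 1.17 between the times. Between the times Cxcr2 ran from -0.26 to 0.42, Ccr1 from -0.29 to 0.48, Fpr1 from -0.18 to 0.40 and Fpr2 from -0.074 to 0.72. No other receptor difference turned in direction under these alternatives. Against S100a9 alone the Cxcr2 ratio turned at both times (-0.27 and -0.66), and against Csf3r alone the Ccr1 ratio turned at both times (0.074 and 0.43). Counting error cannot be computed from FPKM, and 3 libraries per group limit every interval. The cause of these changes was not tested.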
